A study of Ovis aries with 26 samples.

Results

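Complex I (NADH:ubiquinone oxidoreductase) is the first enzyme of the mitochondrial respiratory chain, and 7 of its subunits are encoded by the mitochondrial genome. The transcripts of these 7 genes were examined in single cells of the pancreas of fetal and term sheep. They were all genes of the deposited gene list whose name starts with MT-ND, namely MT-ND1, MT-ND2, MT-ND3, MT-ND4, MT-ND4L, MT-ND5 and MT-ND6, and they made up 7 of 13 MT- genes and of 24478 genes in all. The other 6 MT- genes were MT-COX1, MT-COX2 and MT-COX3 of cytochrome c oxidase, MT-ATP6 and MT-ATP8 of ATP synthase, and MT-CYTB of the cytochrome bc1 complex. For each animal the UMIs (unique molecular identifiers, each marking a captured RNA molecule) of the 7 genes were summed and given as a share of the UMIs of all 13 MT- genes and as a share of all UMIs.

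The animals, fetuses at 80 and 120 days and newborns at term, were without functional CFTR (CFTR-/-, CF) or non-CF. At 80 days there were 3 CF animals and 4 non-CF animals, of which 2 were WT and 2 were CFTR+/- (HZ). At 120 days there were 6 CF and 3 WT animals, and at term 3 CF and 4 WT animals. The 26 libraries came from 23 animals, because CF donor 1 at 120 days and CF donors 1 and 3 at term each gave a pair of libraries, which were averaged. The study's methods state that many of the CF animals, and all of the youngest ones, were cloned from a single line of edited fibroblasts, that the others were bred, and that both HZ animals were triplets of a WT animal of the same age. In cloned animals the mitochondrial genome comes largely from the oocyte. Nothing was given to the animals as a treatment, and all tissue was digested to single cells with enzymes before droplet capture.

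The 7 subunits form the membrane arm of complex I, where protons are pumped, while the nuclear genome encodes the 7 core subunits of the matrix arm and the accessory subunits around both arms. Mitochondrial DNA is transcribed as long RNAs that are cut into individual messengers. MT-ND4L and MT-ND4 remain together on a single messenger with overlapping reading frames, as do MT-ATP8 and MT-ATP6, and how reads in such an overlap were assigned is not given in the sources used here. MT-ND6 is the only MT- gene of the list encoded on the opposite strand, and in human cells its messenger is known to lack a regular poly(A) tail. Because UMI counts were not scaled to gene length, each gene was compared across animals and cell types, not with the other genes.

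Of 109501 barcodes, 98841 had more than 200 genes, and 82055 of these had under 25% MT- UMIs and were kept. The kept barcodes held 70036796 MT- UMIs, of which 20622965 were of complex I, from 154966 to 1864694 per library. A library had between 7841217 and 171256169 UMIs in all. In all, 1565 barcode sequences occurred in more than a single library. CF donor 3 at 120 days, with the fewest UMIs, stood apart: 40.8% of its barcodes with more than 200 genes were at or over 25% MT-, and its kept barcodes had 8.97% MT- UMIs against 4.37% to 5.49% in the other 5 CF animals of that age. In WT donor 1 at term 43.3% of such barcodes were over the limit, and in the other libraries between 6.02% and 29.4%. CFTR itself was counted in duct-gated cells of every library. It had 134 to 378 CPM (a UMI count scaled to the UMIs of the cells counted) in non-CF and 168 to 839 in CF libraries. Since these tags mark the end of the messenger they did not check the edit.

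Over the 23 animals, complex I transcripts took between 27.0% and 33.0% of MT- UMIs. MT-ND4 took 12.9% ± 0.957 (SD, n = 23), MT-ND2 7.42% ± 0.598, MT-ND1 4.79% ± 0.548, MT-ND3 3.20% ± 1.12, MT-ND5 1.08% ± 0.238, MT-ND4L 0.384% ± 0.129 and MT-ND6 0.118% ± 0.0502. The genes differed in how far they varied between animals. The highest animal was 1.28 times the lowest for MT-ND4, 1.39 times for MT-ND2 and 1.53 times for MT-ND1, but 3.95 times for MT-ND3, 4.06 times for MT-ND4L and 4.45 times for MT-ND6. Outside complex I it was 4.65 times for MT-ATP8, at a mean of 0.108% of MT- UMIs, and 1.30 to 1.71 times for the rest. A wide range was thus not particular to the MT-ND genes. The MT-ND3 share was lowest in CF donors 2 and 3 at 80 days, at 1.33% and 1.42%, and highest in HZ donor 2 at 80 days, at 5.25%. The study's animal numbers pair these CF donors, apart from CF donor 1 of that age, and the part of litter was not tested. Within the CF animals at 120 days, the MT-ND3 share was 4.23%, 3.65%, 4.08% and 3.73% in donors 1 to 4 and 2.46% and 1.80% in donors 5 and 6. MT-ND4L followed the same split there, at 0.585%, 0.605%, 0.461% and 0.747% in donors 1 to 4 and at 0.295% and 0.273% in donors 5 and 6. Donors 5 and 6 were naturally bred twins and labelled female, whereas donors 1 to 4 were cloned, so that breeding, litter and sex cannot be told apart in this split. Their files, as those of donor 4 and of CF donors 2 and 3 at 80 days, were named as merged, and the part of any of these in the shares was not tested. Across the 23 animals the shares of MT-ND3 and MT-ND4L had a Pearson r of 0.53 and a Spearman rho of 0.56, and those of MT-ND4L and MT-ATP8 an r of 0.72 and a rho of 0.68, given as a description because all shares of an animal come from the same library and have the same denominator.

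**Figure D1:**
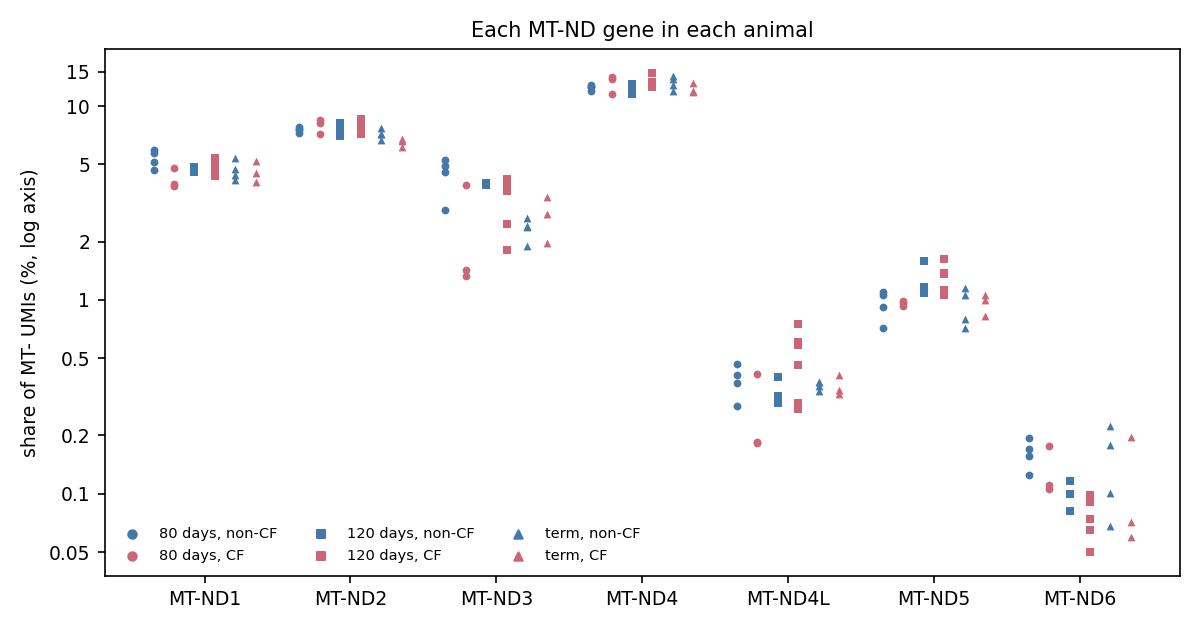
Share of MT- UMIs (percent, log axis) of each MT-ND gene in kept barcodes, with a point for each of the 23 animals, coloured by genotype and shaped by age. The points of MT-ND4 and MT-ND2 lie close together, whereas those of MT-ND3, MT-ND4L and MT-ND6 spread over 3.95 to 4.45 times.

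The first comparison asked whether the complex I part of mitochondrial transcripts differed between CF and non-CF animals. At 80 days every CF animal was cloned and every non-CF animal bred, so genotype and breeding cannot be told apart in any comparison of that age. At 120 days and term, cloned and bred CF animals together were compared with bred WT animals. At 80 days the share of MT- UMIs was 28.9%, 28.5% and 29.3% in the CF animals, against 28.0% in WT donor 1 and 32.8%, 33.0% and 31.3% in donors 2 to 4, the triplets. The triplets lay above all CF animals, and WT donor 1 below them. The means were 28.9% ± 0.398 (SD, n = 3) and 31.3% ± 2.32 (n = 4), and did not pass the exact 2-sided permutation test over animals (adjusted p = 0.457; 3 against 4 animals cannot go below p = 0.0571). At 120 days the CF animals ranged from 30.0% to 32.1%, with a median of 31.3%, and the WT animals had 28.9%, 30.3% and 31.8%, so that the groups overlapped (31.2% ± 0.852, n = 6, against 30.3% ± 1.48, n = 3; adjusted p = 0.457, exact permutation test). At term the CF animals were close together at 27.7%, 27.5% and 27.3%, within the span of the WT animals at 27.0%, 27.5%, 31.5% and 29.3% (27.5% ± 0.176 against 28.8% ± 2.02; adjusted p = 0.457, exact permutation test). The CF effect did not differ between any pair of ages by the exact permutation of labels within ages (lowest adjusted p = 0.205). None of the 21 tests of a single MT-ND gene at an age passed, adjusted over the 21 (lowest adjusted p = 0.60), and none had an unadjusted p under 0.05.

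As a share of all UMIs, complex I took 1.77% ± 0.543 (SD, n = 6) in CF and 1.29% ± 0.110 (n = 3) in WT at 120 days. The CF animals had 1.51%, 1.74%, 2.85%, 1.62%, 1.40% and 1.48%, and the WT animals 1.31%, 1.17% and 1.39%. All CF animals lay above all WT animals, CF donor 5 by a narrow margin, yet the difference of 0.478 percentage points did not pass after adjustment over the 3 ages (p = 0.0238, adjusted p = 0.0714, exact permutation test). Without CF donor 3, which alone was far above the rest, the difference was 0.262 percentage points. The share of all MT- UMIs moved with it, at 5.66% ± 1.66 in CF and 4.25% ± 0.350 in WT. At 80 days the CF and non-CF shares were 1.19% ± 0.171 (n = 3) and 1.30% ± 0.0998 (n = 4), and at term 1.23% ± 0.253 (n = 3) and 1.10% ± 0.102 (n = 4), with an adjusted p of 0.457 at both ages by the exact permutation test. The difference between the CF effects at 80 and at 120 days was -0.589 percentage points (adjusted p = 0.0510, exact permutation of labels within ages), and without CF donor 3 at 120 days it was -0.372. In these dissociated samples a change in the cells' make-up and a change within cells cannot be told apart from the sum over all barcodes.

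**Figure D2:**
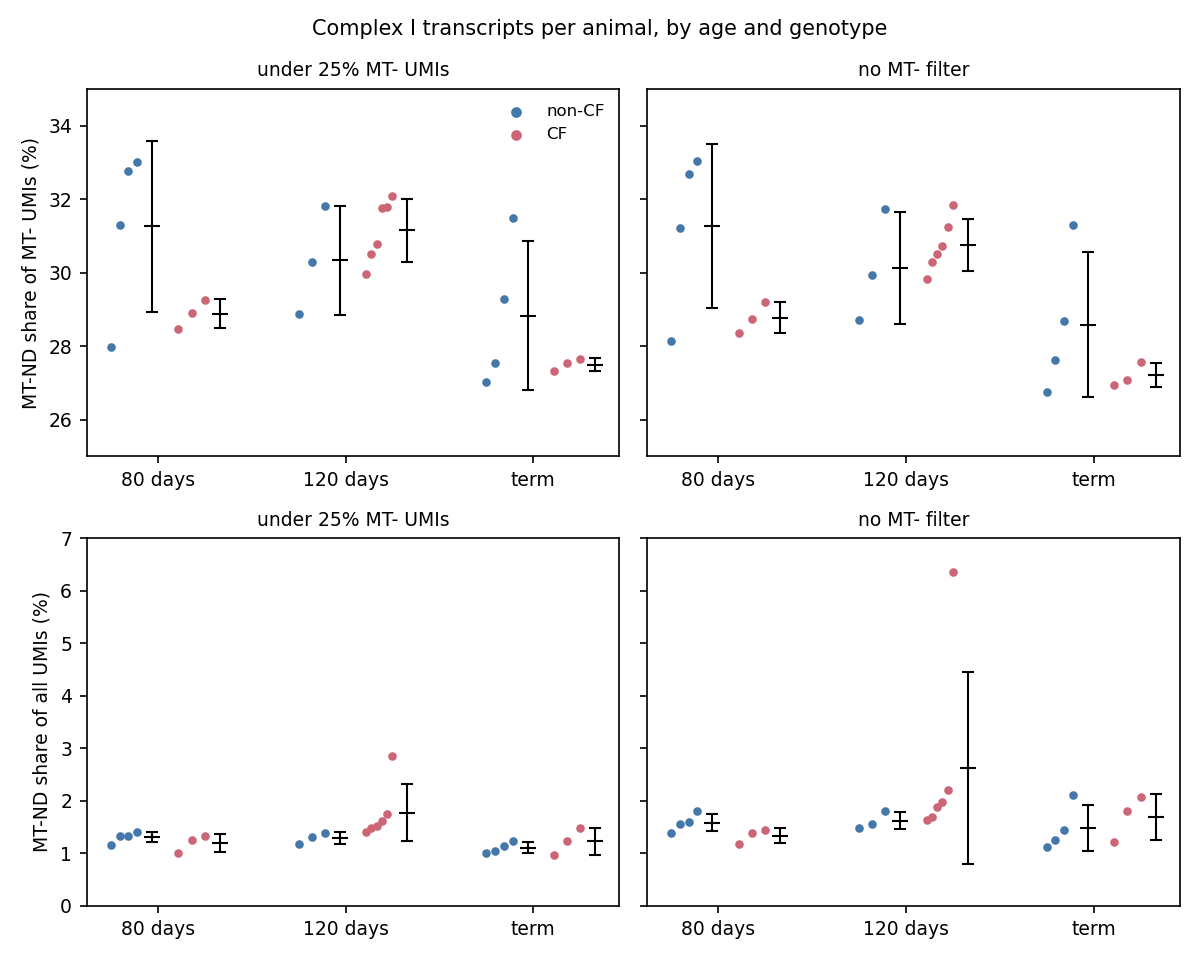
Complex I share of MT- UMIs (top, axis from 25%) and of all UMIs (bottom), in percent, per animal at 80 days, 120 days and term, for barcodes under 25% MT- UMIs (left) and without that filter (right). Points are animals, and bars give the mean ± SD of each group. Without the filter CF donor 3 at 120 days reached 6.35% of all UMIs, while the shares of MT- UMIs stayed close to the filtered ones.

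Without the 25% limit, complex I took much the same part of MT- UMIs in every group: 28.8% ± 0.425 in CF and 31.3% ± 2.23 in non-CF at 80 days, 30.7% ± 0.709 and 30.1% ± 1.52 at 120 days, and 27.2% ± 0.325 and 28.6% ± 1.98 at term (adjusted p = 0.429 at each age, exact permutation test). The share of all UMIs rose by construction, and at 120 days it was 2.62% ± 1.84 in CF against 1.62% ± 0.161 in WT. CF donor 3 had 6.35% there, and the other CF animals 1.64% to 2.21%. With all barcodes included, the CF effects on the share of all UMIs at 80 and at 120 days differed by -1.26 percentage points (adjusted p = 0.0286, exact permutation of labels within ages). Without that animal the difference was -0.513 (adjusted p = 0.0459, exact permutation of labels within ages), an alternative chosen after seeing the data.

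Within the CF animals the complex I share of MT- UMIs differed between the ages. Breeding and sex differed with age too. All CF animals at 80 days were cloned and labelled male. At term donors 1 and 2 were naturally bred and labelled female, and donor 3 was cloned and labelled male. At 120 days and at term breeding went with sex, so that these cannot be told apart. The cloned males had 30.5%, 31.8%, 31.8% and 30.8% at 120 days and 27.3% at term. The bred females had 32.1% and 30.0% at 120 days and 27.7% and 27.5% at term. The step was not tested within either kind. Over all CF animals the share rose from 28.9% ± 0.398 (SD, n = 3) at 80 days to 31.2% ± 0.852 (n = 6) at 120 days. It fell to 27.5% ± 0.176 (n = 3) at term. In both steps the groups did not overlap (adjusted p = 0.0476 for both, exact permutation test). In non-CF animals it was 31.3% ± 2.32 (n = 4), 30.3% ± 1.48 (n = 3) and 28.8% ± 2.02 (n = 4), with overlapping groups (adjusted p = 0.514 and 0.457, exact permutation test). There 3 against 4 animals could not reach the threshold in either step. The age changes were not tested against each other between genotypes. Without the 25% limit the steps in CF were 1.97 and -3.54 percentage points (adjusted p = 0.0476 for both, exact permutation test). With fewer animals, as when the female CF animals at 120 days were left out, 4 against 3 animals could not reach the threshold, and the steps of 2.33 and -3.71 percentage points had an adjusted p of 0.114 by the exact permutation test.

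MT-ND5, the distal proton-pumping subunit of the membrane arm, took in CF animals 0.963% ± 0.0307 at 80 days, 1.27% ± 0.225 at 120 days and 0.959% ± 0.124 at term. Its non-CF shares were 0.949% ± 0.172, 1.28% ± 0.277 and 0.931% ± 0.208. Among the 28 tests of single MT-ND genes between ages, 4 had an unadjusted p under 0.05, both steps of MT-ND5, the step of MT-ND2 to term and that of MT-ND6 to 120 days, all in CF animals, and none passed after adjustment over the 28 (lowest adjusted p = 0.167, exact permutation test). The non-CF steps, of 3 against 4 animals, could not reach an unadjusted p under 0.05, so these 4 could only lie in CF animals.

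The make-up of the cells behind these sums differed between animals and was not tested between ages. Cells gated as acinar by 11 enzyme and secretory markers made up 11.5% to 28.1% of kept cells in non-CF animals at 80 days, 24.7% to 60.8% at 120 days and 57.1% to 78.9% at term, and in CF animals 5.89% to 23.3%, 1.79% to 61.0% and 19.3% to 54.1%. The summed acinar markers took 0.803% to 1.36% of all UMIs in non-CF animals at 80 days, and 3.77% to 9.23% at term. Their part in the age changes was not tested. Complex I was next compared in gated cells between lineages and between genotypes, but not tested between ages.

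Kept cells were assigned to a lineage when markers fixed for it were clearly above those of any other lineage, without using MT- genes. The gates took 32875 acinar, 13113 duct, 6139 endocrine, 5806 stromal, 4498 endothelial, 2212 mural, 1760 myeloid, 1663 lymphoid, 1089 glial and 416 erythroid cells, and left 12484 cells (15.2%) ungated. Genes held back from the gates were in place, with CPM scaled here to the UMIs outside the MT- genes. GP2, a zymogen granule protein, had 682 CPM in acinar-gated cells and 24.4 in the other gated cells. CHGB with PCSK2, of secretory granules and prohormone cleavage, had 505 in endocrine-gated cells and 3.50 elsewhere. Each lineage was compared with the other gated cells of the same animal, in animals with at least 20 cells on each side, by a sign-flip permutation test over animals adjusted over the 10 lineages. The other gated cells were summed. Over all animals acinar-gated cells, with 37989903 MT- UMIs, weighed most in the comparison of every other lineage. Duct-gated cells followed with 11859730 and endocrine-gated cells with 5127284. A low or high acinar value thus moves the other differences the opposite way, and the lineages were not independent tests.

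Endocrine-gated cells, which make the islet hormones, had the complex I share of MT- UMIs raised in every animal. It was 33.3% ± 2.11 (SD, n = 21) against 29.7% in the other gated cells of those animals, higher in 21 of 21 animals (adjusted p = 0.0001, permutation test). The lowest animal, CF donor 2 at 80 days, had 29.2% and the highest, WT donor 3 at term, 37.1%. Glial-gated cells, with Schwann cell markers, had 33.9% ± 2.98 against 29.7%, higher in 13 of 13 animals (adjusted p = 0.000933, permutation test). Lymphoid-gated cells were at 32.2% ± 1.88 against 30.3% (13 of 14 animals, adjusted p = 0.000933, permutation test) and myeloid-gated cells at 31.3% ± 2.00 against 29.8% (13 of 15 animals, adjusted p = 0.0110, permutation test).

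Lower shares of MT- UMIs were found in acinar-gated cells, at 29.4% ± 2.15 (n = 22) against 30.6% and higher in 6 of 22 animals (adjusted p = 0.00402, permutation test). They were also found in endothelial-gated cells, at 28.4% ± 2.14 (n = 23) against 30.0% and higher in 3 of 23 animals (adjusted p = 0.00786, permutation test). Mural-gated cells, with the contractile genes of smooth muscle, pericytes and myofibroblasts, had 29.0% ± 1.54 against 29.9% (5 of 20 animals higher, adjusted p = 0.0304, permutation test). Without CF donor 3 at 120 days this call was lost, at -0.872 percentage points (adjusted p = 0.0515, permutation test). Erythroid-gated cells had 27.7% ± 2.61 against 30.3% (1 of 9 animals higher, adjusted p = 0.0112, exact permutation test). Endothelial- and mural-gated cells were not lower at term, where 3 of 7 and 3 of 5 animals were higher and the differences were 0.858 and 0.890 percentage points. Duct-gated cells (29.8% ± 1.87 against 30.0%) and stromal-gated cells (30.4% ± 2.49 against 30.1%) did not pass, with an adjusted p of 0.450 for both by the permutation test. Without the 25% limit the 7 lineages other than mural passed in the same direction, and mural-gated cells had 29.0% against 29.7% (adjusted p = 0.0570, permutation test).

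The share of all UMIs gave a different order. Endocrine-gated cells had the highest mean, 2.28% ± 0.464 against 1.20% (21 of 21 animals, adjusted p = 5e-05, permutation test), and duct-gated cells followed at 2.04% ± 0.828 against 1.25% (20 of 23 animals, adjusted p = 5e-05, permutation test). Their unadjusted p of 1e-05 is the smallest that 100000 resamples can give. The duct mean included 5.19% in CF donor 3 at 120 days, and the within-animal difference of 0.797 percentage points was 0.710 without it. By age the duct difference was 0.147 at 80 days (5 of 7 animals), 1.00 at 120 days (8 of 9) and 1.18 at term (7 of 7), and the ages were not tested against each other. Glial-gated cells had 1.96% ± 0.792 against 1.46% (10 of 13 animals, adjusted p = 0.0233, permutation test), a call that was lost without the 25% limit, where the difference was 0.350 in place of 0.500 percentage points and 11 of 13 animals were higher (adjusted p = 0.351, permutation test). Acinar-gated cells had 1.13% ± 0.210 against 1.77% (3 of 22 animals higher, adjusted p = 6.67e-05, permutation test), and erythroid-gated cells 0.471% ± 0.304 against 1.25% (0 of 9 animals higher, adjusted p = 0.00977, exact permutation test). The other 5 lineages did not pass. Without the 25% limit stromal-gated cells did, at 1.29% against 1.65% (-0.361 percentage points, adjusted p = 0.0317, permutation test), where they had 1.18% against 1.37% with it (-0.181, adjusted p = 0.111, permutation test). By age, acinar-gated cells were at 1.20% and the other gated cells at 1.25% at 80 days, at 1.25% and 2.03% at 120 days, and at 0.927% and 2.00% at term, and the ages were not tested against each other. Median depth also differed, from 5055 UMIs per lymphoid-gated cell to 27729 per acinar-gated cell, and its part was not tested.

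**Figure D3:**
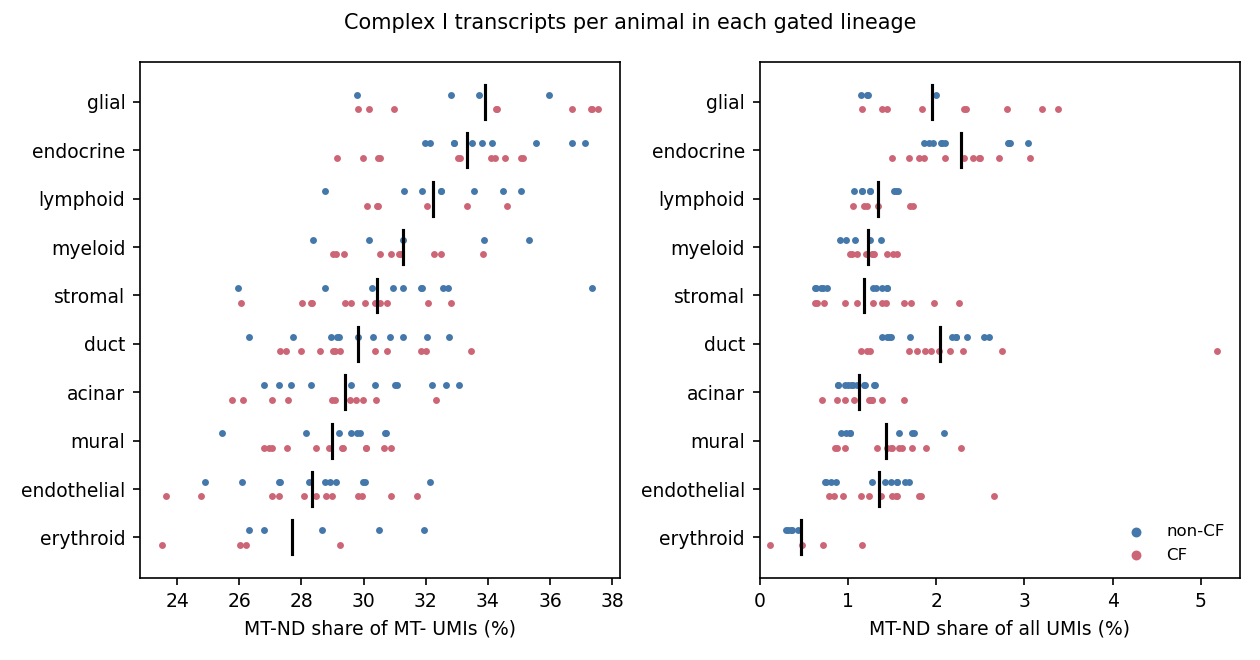
Complex I share of MT- UMIs (left) and of all UMIs (right, axis from 0), in percent, in each gated lineage. Points are animals with at least 20 cells, coloured by genotype, and the black line is the mean over animals. Glial- and endocrine-gated cells lie to the right on the left panel, at 33.9% and 33.3%, while duct-gated cells stand out only on the right panel, at 2.04%.

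Below the sums, the 7 genes moved unevenly between lineages. Over the 70 combinations of gene and lineage, compared after the sums had been seen, the share of MT- UMIs was higher than in the other gated cells in 25 and lower in 17, adjusted over the 70 by the permutation test. Such calls were not particular to the MT-ND genes. In duct-gated cells MT-COX1 took 8.78% against 10.1% (higher in 1 of 23 animals) and MT-ATP6 17.9% against 16.7% (higher in 22 of 23). Both had an adjusted p of 0.00012 over the other MT- genes by the permutation test. MT-ND2, a core membrane subunit, was higher in 6 lineages and lower in acinar-gated cells alone. Since acinar-gated cells weighed most in the other comparisons, the 6 higher calls are not separate from the low acinar value. In acinar-gated cells it took 6.87% ± 0.750 of MT- UMIs against 8.31% ± 0.620, lower in 22 of 22 animals (adjusted p = 8.75e-05, permutation test). In duct-gated cells, which line the tubes that carry acinar secretions, it took 8.38% ± 0.810 against 7.27% ± 0.651, higher in 23 of 23 animals (adjusted p = 8.75e-05, permutation test). The level was highest in glial-gated cells, at 10.2% ± 1.11 against 7.46%, higher in 13 of 13 animals (adjusted p = 0.000754, permutation test).

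MT-ND4, a proton-pumping subunit, was higher in 3 lineages and lower in 4. It was higher in acinar-gated cells, at 13.3% ± 1.12 against 12.3% (19 of 22 animals, adjusted p = 0.000292, permutation test). It was also higher, as MT-ND2 was, in endocrine-gated cells, at 13.5% ± 0.931 against 12.9% (14 of 21 animals, adjusted p = 0.0311, permutation test), and in stromal-gated cells, at 13.3% ± 1.03 against 12.95% (16 of 22 animals, adjusted p = 0.0242, permutation test). These directions were not the same at every age. At 120 days endocrine-gated cells had 13.1% MT-ND4 against 13.2% (higher in 3 of 8 animals), and at 80 days stromal-gated cells had 7.47% MT-ND2 against 7.84% (higher in 3 of 7 animals). MT-ND4 was lower in duct-gated cells, at 11.8% ± 1.01 against 13.2% (higher in 1 of 23 animals, adjusted p = 8.75e-05, permutation test), and in endothelial-gated cells, at 11.9% ± 0.901 against 12.96% (1 of 23 animals, adjusted p = 8.75e-05, permutation test). It was also lower in myeloid-gated cells, at 12.0% ± 1.04 against 13.2% (0 of 15 animals), and in lymphoid-gated cells, at 12.0% ± 1.12 against 12.97% (1 of 14 animals). The sum of complex I in duct-gated cells, which did not pass, held a higher MT-ND2, a higher MT-ND3 (3.55% ± 1.13 against 3.11% ± 1.13, 21 of 23 animals) and a lower MT-ND4. In both genotypes MT-ND2 was higher in duct-gated cells of every animal, at 8.20% against 7.21% in 12 CF animals and at 8.59% against 7.32% in 11 non-CF animals. It was so at each age, with 7 of 7, 9 of 9 and 7 of 7 animals at 80 days, 120 days and term.

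In endocrine-gated cells 5 of the 7 genes were higher, among them MT-ND1, which sits where the membrane arm meets the quinone site, at 5.62% ± 0.986 against 4.68% ± 0.496 (18 of 21 animals, adjusted p = 8.75e-05, permutation test). MT-ND5 took 1.42% ± 0.365 there against 1.04% ± 0.210 (20 of 21 animals, adjusted p = 8.75e-05, permutation test). Beside these, MT-ATP6 of ATP synthase, which has the same denominator, was lower in 21 of 21 animals, at 13.9% ± 1.37 against 17.1% ± 1.51 (adjusted over 60 tests of the other MT- genes, p = 0.00012, permutation test). MT-ND5 was also higher in stromal-, glial-, myeloid- and lymphoid-gated cells and lower in acinar- and duct-gated cells. MT-ND3 was highest relative to other cells in lymphoid-gated cells, at 4.53% ± 1.71 against 3.36% ± 1.22 (14 of 14 animals, adjusted p = 0.00056, permutation test), and was lower in acinar-, stromal-, mural- and erythroid-gated cells.

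MT-ND6 behaved unlike the others. It was higher in stromal-gated cells, with collagen and other fibroblast markers, at 0.199% ± 0.0979 against 0.112% ± 0.0451 (19 of 22 animals, adjusted p = 0.000306, permutation test). It was lower in endocrine-gated cells, at 0.0847% ± 0.0325 against 0.122% ± 0.0493 (higher in 1 of 21 animals, adjusted p = 0.00021, permutation test), where most other subunits were higher. The values rest on 2396 MT-ND6 UMIs in stromal-gated and 4056 in endocrine-gated cells. Lower calls in endothelial-gated (0.103% against 0.120%) and erythroid-gated cells (0.0625% against 0.130%) were weaker, and the latter rests on 39 UMIs in 9 animals, 1 of which had none. MT-ND4L was higher in glial-gated cells (0.492% ± 0.183 against 0.404%, 13 of 13 animals) and in stromal-gated cells (0.437% ± 0.150 against 0.381%, 15 of 22 animals).

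**Figure D4:**
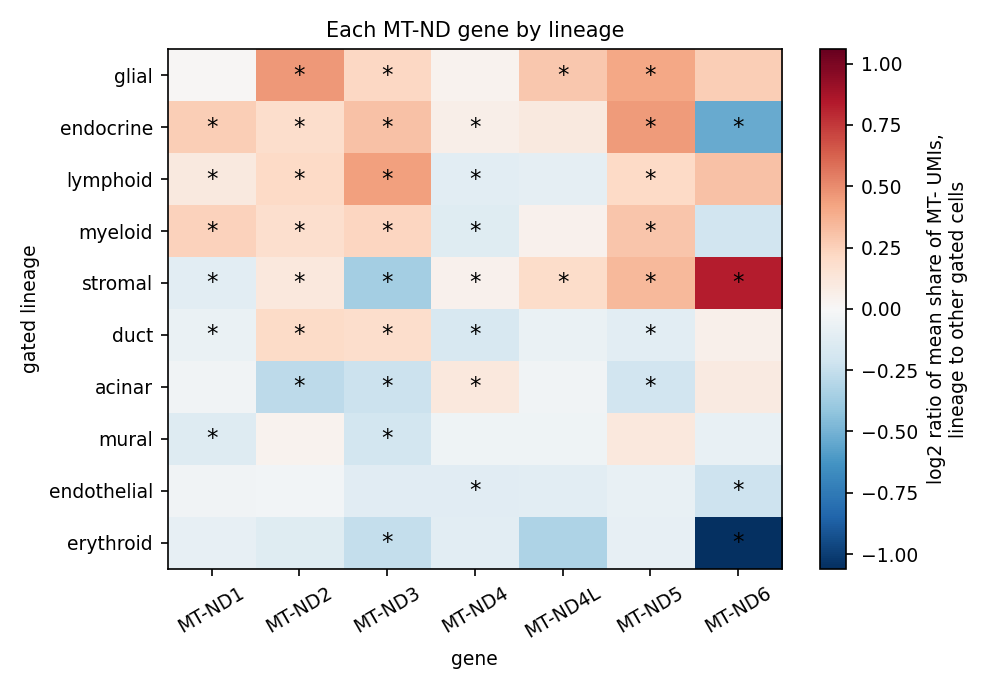
Log2 ratio of the mean share of MT- UMIs in each gated lineage (rows) to that in the other gated cells of the same animals, for each MT-ND gene (columns). Red is higher, blue is lower, and a star marks the 42 of 70 combinations past the threshold. MT-ND2 and MT-ND4 are of opposite colour in acinar- and duct-gated cells, each of which is a large part of the other's comparison. The strongest red is MT-ND6 in stromal cells, with a ratio of 1.78.

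Within lineages, CF and non-CF animals of the same age were compared where each had at least 3 animals with 20 cells, which gave 19 tests. None passed for the share of MT- UMIs (lowest adjusted p = 0.362; 0 of 19 with an unadjusted p under 0.05), nor for the share of all UMIs (lowest adjusted p = 0.362; 1 of 19), by the exact permutation test. The exception was the share of all UMIs in acinar-gated cells at 120 days, at 1.33% ± 0.169 (n = 5) in CF and 1.11% ± 0.0767 (n = 3) in WT (p = 0.0357, exact permutation test). In 3 further comparisons, all of 3 against 4 animals, every CF animal lay below every non-CF animal, with p = 0.0571 by the exact permutation test, the smallest that 3 against 4 animals allow, and in another 2, of 3 against 3 animals, with p = 0.10 by the exact permutation test, likewise the smallest possible. In endocrine-gated cells at 80 days the complex I share of MT- UMIs was 30.0%, 29.2% and 30.5% in CF and 32.0%, 35.6%, 36.7% and 34.1% in non-CF animals, a difference of -4.72 percentage points. As in all comparisons at 80 days, the CF animals were cloned and the non-CF animals bred. In stromal-gated cells at term the complex I share of MT- UMIs was 28.1% ± 2.15 in CF (26.05% to 30.4%) and 33.4% ± 3.45 in WT (30.9% to 37.3%), a difference of -5.25 percentage points and the largest of the 19. It leans on WT donor 3, at 37.3% from 28 stromal-gated cells, where the other WT animals had 31.9% and 30.9%. In erythroid-gated cells at 80 days the complex I share of MT- UMIs was 25.2% ± 1.51 in CF (23.5% to 26.2%) and 29.6% ± 2.92 in non-CF animals (26.3% to 31.9%), a difference of -4.34 percentage points. In duct-gated cells the share of all UMIs was 1.21% ± 0.0506 in CF and 1.45% ± 0.0450 in non-CF at 80 days, and 1.87% ± 0.0752 against 2.43% ± 0.175 at term. At 120 days the duct-gated cells had 2.69% ± 1.27 in CF and 2.04% ± 0.286 in WT, including the 5.19% of CF donor 3. Without the 25% limit again none of the 19 tests of either share passed, and none had an unadjusted p under 0.05. Ages were not tested against each other within lineages. In CF animals the mean share of MT- UMIs at 120 days and at term was 30.4% and 26.3% in acinar-gated cells. It was 31.3% and 28.1% in duct-gated, 34.0% and 33.3% in endocrine-gated, and 29.5% and 29.0% in endothelial-gated cells. Stromal-gated cells had 31.0% and 28.1%, mural-gated cells 29.9% and 28.6%, and myeloid-gated cells 32.4% and 29.9%. Glial-gated cells had 36.5% (n = 4) and 35.8% (n = 2), and lymphoid-gated cells 33.3% at both ages (n = 2 and 1).

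The counts of single genes were tested with edgeR's quasi-likelihood test on UMIs summed per animal, where a level is relative to the other genes of the animal after TMM scaling and adjusted p-values run over all genes tested. In kept cells at 80 days, 5.05% of 17343 genes passed between CF and non-CF. At that age genotype and breeding cannot be told apart, since all CF animals were cloned and all non-CF animals bred. Of the MT-ND genes 1 of 7 passed. All 7 fold changes were below 0, with a median of -0.71 on the log2 scale beside 0.01 over all genes, whereas without scaling factors the median gene stood at 0.38, MT-ND2, MT-ND4 and MT-ND5 at 0.08, 0.08 and 0.01, and the other 4 below 0. After scaling the other 6 MT- genes also lay below 0, with a median of -0.38, and none passed (edgeR, 3 with an unadjusted p under 0.05), and without scaling factors they were not examined. MT-ND1 fell by 0.74 (SE 0.14, adjusted p = 0.0306), from 2490 ± 187 to 1492 ± 81.2 normalised CPM. MT-ND3 had the larger fold change, -1.41 (SE 0.37, adjusted p = 0.0757), at 767 ± 451 against 2031 ± 403. On this normalised level the groups did not overlap for MT-ND1, MT-ND2, MT-ND3, MT-ND4 and MT-ND4L, nor for MT-COX2, MT-COX3 and MT-CYTB. They overlapped for the rest of the MT- genes, and the share of all genes without overlap was not counted. Over library totals, without that scaling, MT-ND3 had 1354 CPM in CF donor 1, within the non-CF range of 1202 to 2238. It had 582 and 647 in donors 2 and 3. Without CF donor 1, 4 of the 7 genes passed, and the calls over all genes went from 875 to 1532. The MT-ND1 call was lost when any of HZ donor 2, WT donor 3, HZ donor 4, CF donor 2 or CF donor 3 was left out (adjusted p from 0.0667 to 0.122, edgeR), with the fold change between -0.78 and -0.69 whichever single animal was left out, or both HZ animals (adjusted p = 0.242, edgeR), where 0 of all genes passed. Without scaling factors MT-ND1 stood at -0.37 (adjusted p = 0.0785, edgeR) and MT-ND3 was the gene called, at -1.09 (adjusted p = 0.0466, edgeR), among 4025 of all genes called, 3783 of them higher, in place of 875. In acinar-gated cells, where 4.45% of genes passed, and in duct-gated cells, where 10.4% passed, 0 of 7 MT-ND genes did so (edgeR, and also 0 by DESeq2, which called 740 and 1801 of all genes), with 3 and 1 at an unadjusted p under 0.05. Without CF donor 1, 2 passed in acinar-gated cells, where 983 of all genes did in place of 542, and 3 in duct-gated cells, where 1459 did in place of 1378 (edgeR).

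At 120 days 0.0352% of genes passed between CF and WT in kept cells, 0.0512% in acinar-gated and 0.032% in duct-gated cells, and at term 0%, 0% and 0.199%. In none of these 6 comparisons did an MT-ND gene pass by edgeR or by DESeq2, which called 38 to 923 of all genes. Of the MT-ND genes, 1 had an unadjusted p under 0.05 in edgeR, MT-ND4L in duct-gated cells at 120 days with a log2 fold change of 0.86 (SE 0.37, adjusted p = 0.787). Of all genes at term 2812 in kept cells and 1009 in acinar-gated cells had an unadjusted p under 0.05 in edgeR, and DESeq2 called 923 and 89 of all genes.

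Between 80 and 120 days 7.51% of genes passed in non-CF animals, and 6 of the 7 MT-ND genes were higher at 120 days, with a median log2 fold change of 0.91 over the 7. MT-ND5 had the largest, 1.44 (SE 0.14, adjusted p = 0.00437), from 293 ± 41.1 to 795 ± 14.8 normalised CPM. MT-ND2 rose by 1.05 (SE 0.16, adjusted p = 0.0117) and MT-ND4 by 1.02 (SE 0.17, adjusted p = 0.0151). MT-ND6 alone did not pass, at 0.38 (SE 0.26, adjusted p = 0.382). The other MT- genes moved too after scaling, with 5 of 6 higher and a median of 1.16, among them MT-ATP8 at 1.80 (adjusted p = 0.00589, edgeR). These rises are relative to the typical gene: without scaling factors the median gene of non-CF animals fell by 0.97, MT-ND1, MT-ND3 and MT-ND4L had values of -0.17, -0.13 and -0.15, and MT-ND6 was called lower at -0.67. Relative to that median the 7 genes stood 0.30 to 1.43 higher. In the same animals the share of all UMIs was level, at 1.30% ± 0.0998 and 1.29% ± 0.110, and the 11 acinar markers took 0.803% to 1.36% of all UMIs at 80 days and 1.56% to 5.12% at 120 days, whose part was not tested. Without both HZ animals none of the 7 passed, nor did any other gene. With a single animal left out between 1 (without HZ donor 4 at 80 days or WT donor 1 at 120 days) and 7 (without WT donor 3 at 120 days) did, while 212 and 258, and 3232, of all genes passed against 1267 with every animal. The fold changes stayed between 1.355 and 1.503 for MT-ND5, 0.97 and 1.16 for MT-ND2 and 0.93 and 1.14 for MT-ND4.

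In CF animals 0.321% of genes passed between 80 and 120 days, MT-ND4L at 2.19 (SE 0.36, adjusted p = 0.0464) and MT-ND5 at 1.68 (SE 0.25, adjusted p = 0.0453) among them. All 7 fold changes were above 0, with a median of 1.54 beside 0.06 over all genes, and without scaling factors 6 were above 0 and MT-ND6 at -0.31, none passed, and the median gene stood at -0.70. Of the other 6 MT- genes MT-ATP8 passed, at 2.29 (adjusted p = 0.0453, edgeR), and their median was 1.31. Without CF donor 3 at 120 days 6 of 7 passed, with 2040 of all genes in place of 56, and without any other single animal none did, with 0 to 17 of all genes (edgeR). The fold changes stayed between 2.01 and 2.61 for MT-ND4L and between 1.61 and 1.74 for MT-ND5. From 120 days to term 0.129% of genes passed in non-CF and 1.89% in CF animals, with 0 of 7 MT-ND genes in either (1 and 0 at an unadjusted p under 0.05, edgeR; 0 by DESeq2 in both, which called 1553 and 1654 of all genes). Their medians were 0.08 and -0.36.

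The nuclear genes of complex I were counted in the same comparisons. Those of CF with non-CF at 80 days again set cloned animals against bred ones. Of the 7 core subunits, 3 were lower in CF duct-gated cells at 80 days, namely NDUFS1 (-0.75, SE 0.12, adjusted p = 0.00528) and NDUFS7 (-0.60, SE 0.12, adjusted p = 0.0131), which hold iron-sulphur clusters, and NDUFS3 (-0.43, SE 0.10, adjusted p = 0.0314), with the accessory subunits NDUFB9 (-0.58, adjusted p = 0.0156, edgeR) and NDUFA9 (-0.42, adjusted p = 0.0409, edgeR), 2 of 29 tested. Among 18 genes of mitochondrial transcription and RNA handling (16 tested in duct-gated cells), LRPPRC, which stabilises mitochondrial messengers, was lower in CF at 80 days in kept cells (-0.53, SE 0.11, adjusted p = 0.0358) and in duct-gated cells (-0.63, SE 0.11, adjusted p = 0.00812), and TFAM, which packages and transcribes mitochondrial DNA, in duct-gated cells (-0.48, SE 0.11, adjusted p = 0.0223). These counts stand beside 10.4% of all genes called in duct-gated and 5.05% in kept cells, where LRPPRC was 1 of 18. Without both HZ animals 0 of all genes passed in kept cells at 80 days, so that the LRPPRC call there was lost. The nuclear calls in duct-gated cells were not examined without them. NDUFS5, an accessory subunit, was higher at 120 than at 80 days in non-CF animals (0.46, SE 0.11, adjusted p = 0.0477), as 1 of 29 tested, where 7.51% of all genes passed. The NDUFS5 call was also lost without both HZ animals, where no gene passed. No other gene of the 3 lists passed in any of the 13 comparisons. From 120 days to term the median log2 fold change in kept cells was 0.65 for the core and 0.40 for the accessory subunits in non-CF animals, and 0.38 and 0.46 in CF animals, where those of the MT-ND genes were 0.08 and -0.36, and none of these nuclear genes passed.

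CPM was scaled here to the UMIs outside the MT- genes. Among 1955 genes outside the MT- group with a mean of at least 50 CPM, those whose level over the 23 animals was most like the summed MT-ND level were LOC105615000 (Pearson r = 0.80), OGT (0.78), NFAT5 (0.77), MBNL2 (0.75) and ETNK1 (0.74). The Spearman values were 0.64, 0.61, 0.57, 0.57 and 0.57, and without CF donor 3 at 120 days the Pearson values were 0.66, 0.61, 0.56, 0.53 and 0.53. All points of a library share its depth, so these values are a description.

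The barcodes removed by the 25% limit were then compared with those kept in the same animal. They had a complex I share of 29.0% ± 1.95 of MT- UMIs against 29.9% ± 1.90 (SD, n = 23), lower in 20 of 23 animals (difference -0.909 percentage points, p = 5e-05, permutation test). By age it was lower in 5 of 7 animals at 80 days (p = 0.297, exact permutation test), 9 of 9 at 120 days (p = 0.00391, exact permutation test) and 6 of 7 at term (p = 0.0312, exact permutation test). Across bins of the MT- share the complex I share was 28.0% ± 2.62 in barcodes under 2% MT-, 29.6% ± 1.90 from 2% to 5%, 30.4% ± 2.00 from 5% to 10%, 29.7% ± 1.82 from 10% to 25%, 29.2% ± 1.89 from 25% to 50% and 28.8% ± 2.04 over 50%. The bins hold the same animals and were not tested against each other.

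The single genes again differed. In barcodes over the limit MT-ND1 was lower in 23 of 23 animals, at 4.45% ± 0.545 against 4.79% ± 0.548, and MT-ND2 in 21 of 23, at 7.04% ± 0.622 against 7.42% ± 0.598 (adjusted p = 4.33e-05 and 7.80e-05, adjusted over the 13 MT- genes, permutation test). MT-ND3 was lower in 20 of 23 animals and MT-ND4L in 18 of 23 (adjusted p = 0.000325 and 0.0114, permutation test). MT-ND4 took 12.9% on both sides and MT-ND5 1.07% and 1.08%, and neither passed. MT-ND6 was higher over the limit in 23 of 23 animals, at 0.159% ± 0.0667 against 0.118% ± 0.0502 (adjusted p = 4.33e-05, permutation test), with a mean ratio of 1.36 per animal. Of the other MT- genes, MT-COX3 was higher at 20.7% against 19.8% (lower in 2 of 23 animals), and MT-ATP6 at 17.6% against 16.9% (lower in 3 of 23). MT-COX2 and MT-CYTB were lower, in 20 and 17 of 23 animals. Their adjusted p ran from 4.33e-05 to 0.0114 by the permutation test, and MT-COX1 and MT-ATP8 did not pass. The cells' lineage differed between the sides of the limit to an extent that was not tested here.

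**Figure D5:**
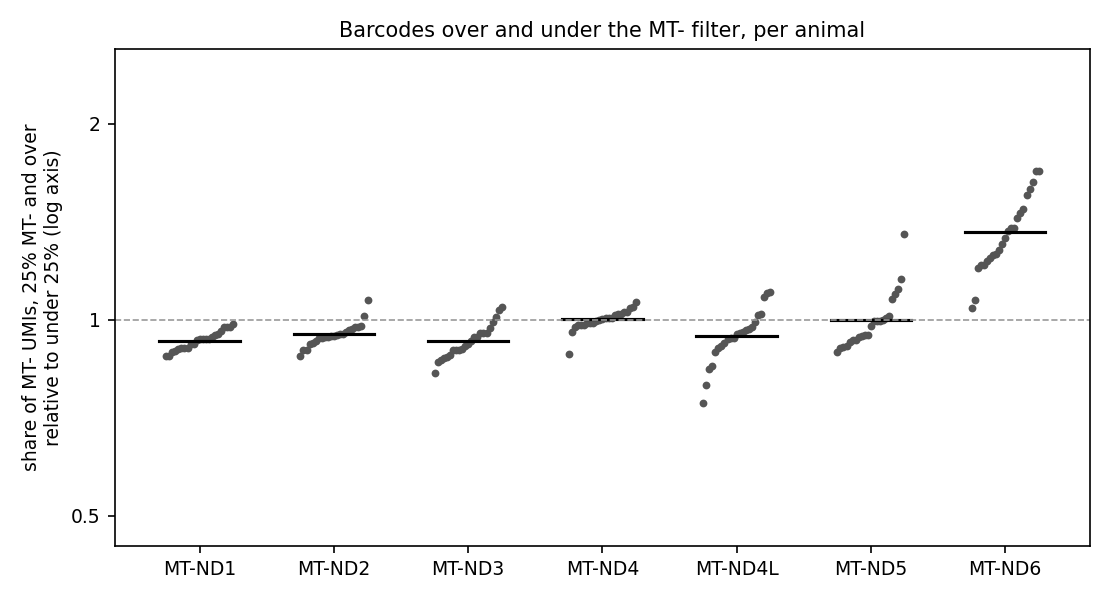
Ratio (log axis) of each gene's share of MT- UMIs in barcodes at or over 25% MT- to that in barcodes under 25% of the same animal. Points are the 23 animals and the black line is their mean. All animals lie below 1 for MT-ND1 and above 1 for MT-ND6, whose ratios run from 1.04 to 1.69.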

How the data were processed

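Single-cell RNA was captured by a droplet method from the 3′ end of messengers, and per the labels reads were processed with Cell Ranger 3.1.0 on the sheep assembly Oar_v4.0. The deposited UMI counts per gene and barcode were used as given, with groups from the sample labels. Barcodes with more than 200 genes were used, with and without a limit of 25% MT- UMIs; doublets were not called and free RNA was not subtracted. Shares were averaged over the libraries of an animal. Animals were the replicates, so p-values set group differences against the variation between animals. Litter and cloning from a single line were not taken into account, and littermates and clones were counted as independent animals. Besides the triplets and the bred twins, the study's animal numbers pair CF donors 2 and 3 at 80 days and at 120 days. They also pair WT donors 1 and 2 at 120 days. Gates required a marker score of at least 0.1, at least 2 markers and 2 times the next lineage, with scores scaled by the 99.5th percentile of kept cells. Tests were exact permutations over animals or sign-flips within animals (100000 resamples, seed 88, for 10 or more animals), with Benjamini-Hochberg adjustment, and edgeR 4.0.16 (TMM, filterByExpr, glmQLFit, glmQLFTest, threshold 0.05; SE from the log2 fold change and its F) in R 4.3.3, with DESeq2 1.42.0 as an alternative and Python 3.11.15 with scipy 1.17.1. The edgeR fits were tested on simulated data with known changes. Every MT-ND gene is named, with at most 3 passing genes of each nuclear list per comparison by fold change, and the 5 genes most alike. The members, markers and lists were chosen with earlier results of these data known. Tests of single MT- genes by lineage and age were added after the sums were seen. No sequence was used here.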

Additional observations from a re-analysis of the deposited data

Results flagged for a closer look

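CF donor 3 at 120 days lay far from the other 5 CF animals of its age in the complex I share of all UMIs, at 2.85% where the others had 1.40% to 1.74%, and in the share of all MT- UMIs, at 8.97% where they had 4.37% to 5.49%. Its complex I share of MT- UMIs, 31.8%, was within the range of the others. These were the 2 outlying values in 30 groups of 4 to 10 samples examined, and chance alone gives about 1 in 20. They are not separate, since complex I transcripts are part of the MT- UMIs. Of the 951 kept cells of this animal 436 (45.8%) were endothelial-gated, where the median of the CF animals of that age was 4.07%. Acinar-gated cells made up 1.79%. The part of this make-up in the shares was not tested.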

How the results depend on the processing

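Over 65 results and 742 alternative values, 548 kept their direction and their side of the threshold or moved by less than the spread between replicates, and 27 reversed; the cause was not tested unless a value below shows it. The rise and fall of the complex I share of MT- UMIs in CF animals ran from 2.07 to 2.51 and from -3.89 to -3.46 percentage points with single animals left out, where fewer animals limit the p, and gave 2.33 and -3.71 without the female CF animals at 120 days and -3.85 for the fall without libraries named as merged. The non-CF step from 80 to 120 days in the share of all UMIs, -0.0159 percentage points, became 0.0329 without the MT- limit, 0.232 as a mean over barcodes, 0.0420 without HZ animals and -0.0650 to 0.0437 with single animals left out. The CF difference at term became -0.00538 as a mean over barcodes and -0.000678 to 0.252 with single animals left out, and the difference between the CF effects at 80 and at 120 days became -1.26 without the MT- limit and ran from -0.513 to -0.372 without CF donor 3 at 120 days, the first without that limit. Of the 8 lineages that passed for the share of MT- UMIs, 5 did so with at least 50 cells, and 4, 2 and 0 in animals of 80 days, 120 days and term alone. For the share of all UMIs the 5 became 3, then 0, 3 and 0. At a single age at most 7, 9 and 7 animals entered, which limits the p, so a lost call does not show that a difference was lost.

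Single lineages changed sign against the other gated cells. For the share of MT- UMIs these were stromal at 80 and 120 days (-0.688 and -0.156) and, at term, duct (0.654), mural (0.890) and endothelial (0.858). For the share of all UMIs they were mural without the MT- limit (-0.191), with a gate of 0.2 (-0.0212), as a mean over cells (-0.0263) and at 80 days (-0.270), endothelial with a gate of 0.05 (0.00445), as a mean over cells (0.0255), at term (0.373) and without CF donor 3 at 120 days (0.0278), myeloid with at least 50 cells (0.0601) and at term (0.185), lymphoid at 80 days (-0.0374) and stromal at term (0.358).

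In edgeR the count of MT-ND genes called at 80 days in kept cells, 1, was 4 by DESeq2, 2 without the MT- limit, 0 without HZ animals and 0 to 4 with single animals left out, where 2089, 880, 0 and 61 to 1532 of all genes were called in place of 875. In acinar-gated cells it was 1 without scaling factors and 0 to 2 with single animals left out, where 410 and 146 to 983 of all genes were called in place of 542, and in duct-gated cells 0 to 3 with single animals left out, where 496 to 1884 were called in place of 1378. Between 80 and 120 days the 6 non-CF calls became 1 without scaling factors (MT-ND1 -0.17, MT-ND3 -0.13, MT-ND4L -0.15), 0 without HZ animals and 1 to 7 with single animals left out, where 11402, 0 and 212 to 3232 of all genes were called in place of 1267. The 2 CF calls became 6 by DESeq2, 0 without scaling factors, 1 without the filter on low counts, 1 without the MT- limit, 0 without the female animals at 120 days and 0 to 6 with single animals left out, where 1255, 1118, 44, 33, 0 and 0 to 2040 of all genes were called in place of 56. Donor numbers did not mark shared animals, and the deviations of same-numbered animals correlated between -0.362 and 0.196. With the donor number as a replicate block, 0 MT-ND genes and 0 of all genes were called at 80 days in kept cells, MT-ND1 standing at -0.76 (adjusted p = 0.275, edgeR), and 0 MT-ND genes in the other 8 comparisons of CF with non-CF, where 0 to 512 of all genes were called (512 in acinar-gated cells at 120 days, in place of 7). MT-ND6 rests on 245 to 4871 UMIs per library, which limits its precision.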
